A study of Ovis aries with 3 samples.

Results

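The genes described here are 8 transcription factors of the heart and the lateral plate mesoderm: *NKX2-5*, *HAND1*, *HAND2*, *GATA4*, *GATA6*, *TBX5*, *TBX20* and *ISL1*. They were taken by symbol from the gene table of the deposited matrices, where all 8 were found among 26478 genes. Their identifiers in that table were ENSOARG00020019608 for *NKX2-5*, ENSOARG00020019349 for *HAND1*, ENSOARG00020009532 for *HAND2*, ENSOARG00020007935 for *GATA4*, ENSOARG00020025920 for *GATA6*, ENSOARG00020014733 for *TBX5*, ENSOARG00020004800 for *TBX20* and ENSOARG00020004124 for *ISL1*. The rule that takes them uses gene names and no measured value, but the 8 genes were chosen with earlier results of these data known.

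The lateral plate mesoderm lies at the flanks of the early embryo and gives rise to the heart, the body wall and gut mesenchyme, the limb mesenchyme, and the mesoderm that lines the extraembryonic membranes. The 8 factors form much of the network that turns part of this sheet into heart: the zinc finger factors GATA4 and GATA6, the T-box factors TBX5 and TBX20, the homeobox factors NKX2-5 and ISL1, and the basic helix-loop-helix factors HAND1 and HAND2 bind regulatory DNA together and switch on contractile genes. Most of them also act elsewhere: HAND2 and TBX5 in limb buds, HAND1 in extraembryonic mesoderm and placenta, GATA4 and GATA6 in endoderm, and ISL1 in motor and sensory neurons.

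Single-cell RNA sequencing (10x Genomics 3′ libraries) was carried out on whole sheep embryos at embryonic day 16 (E16) and day 19 (E19) from Hulunbuir short-tailed sheep (HSTS), which carry a missense mutation in the DNA-binding domain of the *T* gene (Brachyury), and from Hu sheep (HS), which carry the wild-type allele. The 3 libraries were E16 HS, E19 HS and E19 HSTS, with 1 library in each group. Embryos were flushed from the uterus, dissociated with collagenases and treated with a red cell lysis buffer before capture. Each E19 library came from 1 embryo; for E16 HS the label names 1 embryo while the study's methods list 3, so pooling of embryos in that library could not be settled. With 1 library in each group no test between groups was possible. All intervals given are exact 95% intervals, Poisson for UMI (unique molecular identifier) counts and their ratios and binomial for shares of cells, and they cover counting error only, not differences between embryos.

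After filtering on detected genes (200 to 6000), total UMIs (1000 to 30000) and the mitochondrial share (no more than 10%), the data comprised 11329 cells of E16 HS, 10629 of E19 HS and 9618 of E19 HSTS, with medians of 9046, 6900 and 8675 UMIs per cell. The kept cells held 113213654 UMIs in E16 HS, 88733467 in E19 HS and 99580051 in E19 HSTS. Levels are given as CPM, counts scaled to 1000000, that is the UMIs of a gene summed over a set of cells and divided by all UMIs of those cells, times that number. In such sums fewer cells with a gene and less RNA per cell cannot be told apart. Between 31 and 37 kept barcodes were shared by each pair of libraries.

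Cells were placed in groups by marker gates. The cardiac gate (at least 3 *MYL7* and 2 *TNNT2* UMIs, genes of the atrial myosin light chain and of cardiac troponin T) took 20 cells of E16 HS (0.177%), 107 of E19 HS (1.01%) and 80 of E19 HSTS (0.832%). Thinned to 3000 UMIs per cell, with shallower cells left out, the gate took 0.130%, 0.722% and 0.846%. The other gates used here were mesenchymal (*DCN* and *POSTN*; 710, 488 and 430 cells), endodermal (at least 20 *APOA2* UMIs; 48, 98 and 97 cells), erythroid (*AHSP* and *BLVRB*; 1966, 1388 and 2468 cells), endothelial (*KDR* and *PLVAP*; 81, 210 and 147 cells), neuronal (*NEFM* and *NEFL*; 14, 103 and 91 cells) and epithelial (*CLDN7* and *KRT7*; 621, 351 and 307 cells). No gate took 7195, 6680 and 4945 cells, which are called ungated.

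The labels of the gates were checked against further markers. In the cardiac gate 7 of the 9 cardiac markers present in the table were detected in at least 10% of cells in each library. *NPPA*, the atrial natriuretic peptide gene, had 0 UMIs in all 3 libraries, which allows at most 0.0338 CPM over all kept cells (3 UMIs). All 7 endodermal and all 5 mesenchymal check markers passed the same mark in their own gates. The cardiac gate also held RNA of other cell types. The summed level of the 5 mesenchymal markers in it was 1694 CPM in E16 HS, 138.9 CPM in E19 HS and 156.9 CPM in E19 HSTS, and 1 cell of E16 HS carried 28 of the 32 *DCN* UMIs of that gate. In E19 HS a single cardiac-gated cell held 148 of 152 *APOA2* and 415 of 420 *SERPINA1* UMIs. At the rim of the gate, 4 cells of E16 HS, 22 of E19 HS and 1 of E19 HSTS lay just inside it (3 to 5 *MYL7* or 2 to 3 *TNNT2* UMIs), with *HAND2* at 67.4, 123.5 and 131.4 CPM from 1, 13 and 1 UMIs. Just outside, 7, 9 and 7 cells had a UMI of both genes without passing, with *HAND2* at 77.5, 29.96 and 25.7 CPM from 6, 2 and 2 UMIs. Cells with at least 2 *TNNT2* UMIs and none of *MYL7* numbered 47, 58 and 62. Those of E19 HS and E19 HSTS carried the fast skeletal light chain gene *MYLPF* at 3932 and 3604 CPM.

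Over all kept cells, *HAND2*, which acts in the second heart field, limb and branchial mesenchyme, had 3109 UMIs in E16 HS, 858 in E19 HS and 910 in E19 HSTS. This was 27.5 CPM (26.5 to 28.4) at E16 and 9.67 (9.03 to 10.3) and 9.14 (8.55 to 9.75) in the E19 libraries, and 14.4%, 5.39% and 6.25% of cells had a UMI of it. E16 HS stood above both E19 libraries, whose intervals overlapped. *HAND1*, its relative in the left ventricle and the extraembryonic mesoderm, had 392, 112 and 145 UMIs (3.46, 1.26 and 1.46 CPM), again with E16 HS highest.

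*GATA4*, an early activator of the cardiac programme, had 454, 94 and 100 UMIs in E16 HS, E19 HS and E19 HSTS (4.01, 1.06 and 1.00 CPM). *GATA6*, its paralog in heart and primitive endoderm, had 785, 300 and 323 UMIs (6.93, 3.38 and 3.24 CPM). For both GATA genes E16 HS was the high library and the E19 libraries were within each other's counting error.

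*TBX20*, required for chamber growth and endocardial cushions, had 355, 80 and 80 UMIs (3.14, 0.902 and 0.803 CPM). *TBX5*, the forelimb and left-heart T-box factor, had 108, 62 and 103 UMIs (0.954, 0.699 and 1.03 CPM). *TBX20* thus followed the *HAND* and *GATA* genes, whereas *TBX5* was lowest in E19 HS and close in the other libraries.

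*ISL1*, a factor of second heart field progenitors and of motor neurons, had 273, 128 and 153 UMIs (2.41, 1.44 and 1.54 CPM). *NKX2-5*, the homeobox factor of committed heart cells, had 6 UMIs in E16 HS, 8 in E19 HS and 6 in E19 HSTS, in 5, 8 and 5 cells. Its 0.0530, 0.0902 and 0.0603 CPM rested on too few counts, so no ratio between libraries is given for *NKX2-5*.

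**Figure D1:**
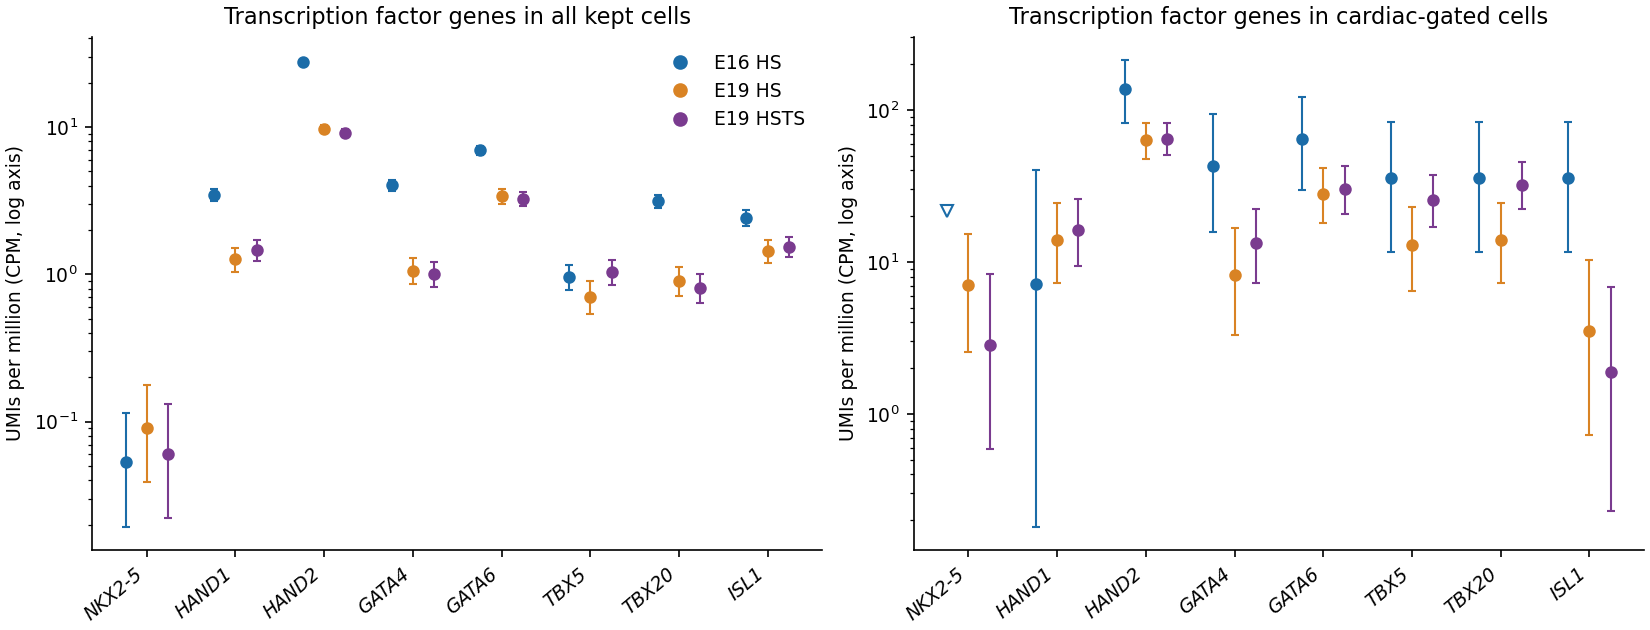
Level of each transcription factor gene in the 3 libraries, in all kept cells (left) and in cardiac-gated cells (right); the vertical axis is CPM on a log scale, points are library values and bars are exact 95% Poisson intervals, and the open triangle is the level that 3 UMIs would give for *NKX2-5* in E16 HS cardiac-gated cells, which had 0 UMIs. *HAND2* stands at 27.5 CPM in all cells of E16 HS against 9.67 and 9.14 CPM in the E19 libraries, while in cardiac-gated cells the intervals of the libraries overlap for most genes.

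To compare stages within Hu sheep, the CPM of E16 HS was divided by that of E19 HS for genes with at least 50 UMIs over both libraries, which 7 of the 8 factors met. The level was at least 2-fold higher in E16 HS for 5 of these 7, *HAND1*, *HAND2*, *GATA4*, *GATA6* and *TBX20*, and none was 2-fold lower. Over all 12580 genes that met the minimum, 6.96% were at least 2-fold higher, 6.38% at least 2-fold lower and 13.3% past 2-fold in either direction. The ratio was 3.79 (3.03 to 4.78) for *GATA4*, 3.48 (2.72 to 4.49) for *TBX20*, 2.84 (2.63 to 3.07) for *HAND2*, 2.74 (2.22 to 3.42) for *HAND1* and 2.05 (1.79 to 2.35) for *GATA6*. The remaining pair lay lower, *ISL1* at 1.67 (1.35 to 2.08) and *TBX5* at 1.37 (0.990 to 1.90). The median over the 7 factors was 2.74, and over all genes tested 1.17. Markers of trophoblast, which a flushed conceptus can hold, moved the same way: 5 of 8 tested were at least 2-fold higher in E16 HS (*CDX2* 7.86, *KRT8* 4.37, *TFAP2C* 3.81, *KRT7* 2.64 and *GATA3* 2.27), with a median of 2.45. Of 12 tested endoderm genes 3 were at least 2-fold lower (*SERPINA1* 0.267, *FGG* 0.287 and *HNF4A* 0.469) and 1 was higher (*TTR* 2.05). The summed level of the 5 trophoblast check markers was 468, 263 and 249 CPM in epithelial-gated cells of E16 HS, E19 HS and E19 HSTS. In ungated cells, which held most of the factors' UMIs at E16, it was 13.7, 10.9 and 9.24 CPM. *KRT7* is among these 5 markers and also defines the epithelial gate. The difference between the gates was therefore set in part by the gate and does not show where trophoblast cells lie. The part of such cells in the factors' ratios was not tested. The ratios of *GATA6* and *HAND2* fell short of 2 when each cell was weighted equally, at 1.66 and 1.98. *GATA6* also did so with TMM scaling (1.77), over all deposited cells (1.99) and without erythroid-gated cells (1.94).

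To compare the breeds at day 19, E19 HSTS was divided by E19 HS in the same way. The E19 HS library serves in both comparisons, so they are not independent. None of the 7 factors with enough UMIs was past 2-fold, beside 3.81% of 12439 genes. The ratio was 0.945 (0.860 to 1.04) for *HAND2*, 0.948 for *GATA4*, 0.959 for *GATA6*, 0.891 for *TBX20*, 1.07 for *ISL1* and 1.15 for *HAND1*. *TBX5* alone had an interval that excluded 1, at 1.48 (1.07 to 2.06). E19 HSTS held more erythroid-gated cells than E19 HS (2468 against 1388), and without these cells the ratios of the 7 factors were higher, from 1.13 for *TBX20* to 1.91 for *TBX5*, with *HAND1* at 1.49, *ISL1* at 1.35, *HAND2* and *GATA4* at 1.22 and *GATA6* at 1.20.

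**Figure D2:**
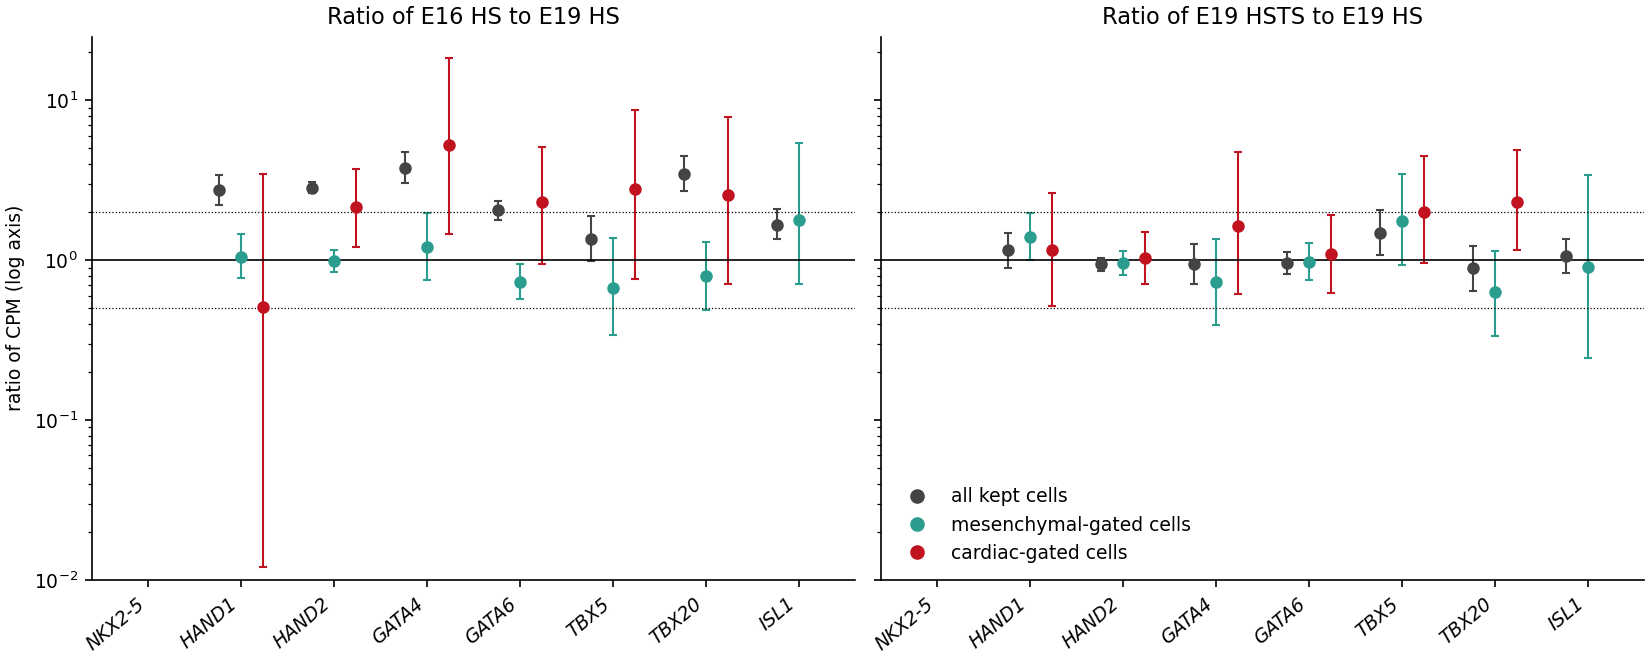
Ratio of CPM between libraries for each transcription factor gene, E16 HS to E19 HS and E19 HSTS to E19 HS, in all kept, mesenchymal-gated and cardiac-gated cells; the axis of ratios is logarithmic, points are ratios, bars are exact 95% intervals, dotted lines mark 0.5 and 2, and genes short of the UMI minimum are not drawn. In all kept cells 5 genes lie past 2 in the comparison of stages and 0 in the comparison of breeds, and no gene lies past 2 in mesenchymal-gated cells.

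Apart from *NKX2-5* at E19, the UMIs of the factors lay mostly outside the cardiac gate, and the place where they lay differed between the stages. In E16 HS the ungated cells held 78.5% of the *HAND2* UMIs, 82.3% of those of *TBX20*, 72.2% of *GATA6*, 70.0% of *GATA4*, 62.0% of *HAND1*, 71.3% of *TBX5* and 71.4% of *ISL1*. Ungated cells of E19 HS held 479 of 858 *HAND2* UMIs, 33 of 62 of *TBX5* and 70 of 128 of *ISL1*. They also held 35 of 80 of *TBX20*, 125 of 300 of *GATA6*, 45 of 94 of *GATA4* and 34 of 112 of *HAND1*. Ungated cells of E16 HS with 5 or more UMIs of *DCN*, the proteoglycan decorin of connective tissue, numbered 1112 (9.82% of kept cells), against 72 (0.677%) in E19 HS and 46 (0.478%) in E19 HSTS. This split by *DCN* was chosen after the values had been seen. Those 1112 cells alone held 75.2% of the *TBX20*, 52.7% of the *HAND2*, 50.9% of the *GATA4*, 47.6% of the *GATA6*, 43.5% of the *TBX5*, 42.1% of the *HAND1* and 11.4% of the *ISL1* UMIs of their library. *HAND2* was at 100.7 CPM in them and was detected in 65.7% of them.

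The stage ratios were also taken within cells with and without *DCN*, as a description that tests no cause, since *DCN* was picked from these values and its level within such cells was not matched. Cells with 5 or more *DCN* UMIs and neither the cardiac nor the erythroid gate were 14.2% of kept cells in E16 HS, 3.26% in E19 HS and 3.63% in E19 HSTS. Within them *HAND2* was at 93.1, 63.1 and 60.9 CPM, with a ratio of E16 HS to E19 HS of 1.47 (1.27 to 1.73). *GATA4* was at 1.84 (1.15 to 3.10), *TBX20* at 1.39 (0.951 to 2.12), *GATA6* at 0.801 (0.634 to 1.02) and *HAND1* at 0.735 (0.537 to 1.02). In cells with no *DCN* UMI the ratio was 2.17 (1.55 to 3.06) for *GATA4*, 1.48 (1.32 to 1.66) for *HAND2*, 1.54 for *HAND1* and 1.17 for *GATA6*. These cells include the erythroid-gated ones, in which *GATA4* had 42 UMIs in E16 HS and 4 in E19 HS, and without them the ratio of *GATA4* was 1.67. *TBX20* turned to 0.348 (0.180 to 0.637) in all cells with no *DCN* UMI, from 15 UMIs in E16 HS and 45 in E19 HS. For the breeds, *DCN*-rich cells of E19 HSTS and E19 HS had 27 and 7 UMIs of *TBX5*, a ratio of 3.21 (1.36 to 8.73), 14 and 29 UMIs of *TBX20*, a ratio of 0.402 (0.196 to 0.785), and 83 and 47 UMIs of *HAND1*, a ratio of 1.47 (1.02 to 2.15). The intervals of *HAND2*, at 0.964, *GATA6*, at 1.06, *GATA4*, at 0.700, and *ISL1*, at 0.277 from 2 and 6 UMIs, included 1. The share of all genes past 2-fold in *DCN*-rich cells was not counted. In the mesenchymal gate *TBX5* and *TBX20* were at 1.76 and 0.628, neither past 2-fold.

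**Figure D3:**
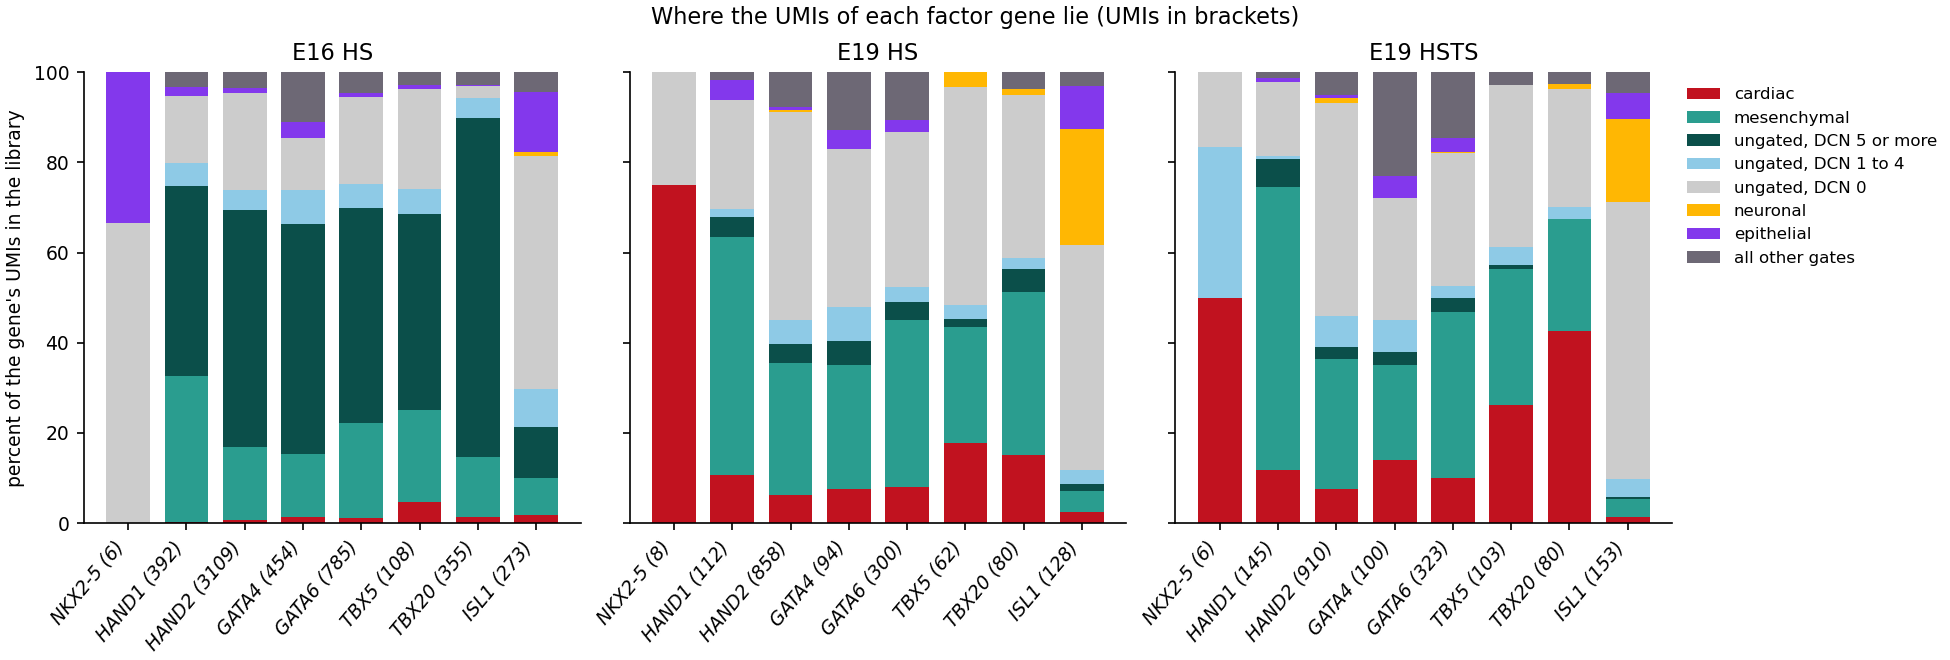
Percent of each transcription factor gene's UMIs by cell group in each library; bars stack to 100% and the groups are the cardiac, mesenchymal, neuronal and epithelial gates, ungated cells split by their *DCN* UMIs (0, 1 to 4, 5 or more), and all other gates. Ungated *DCN*-rich cells take 75.2% of the *TBX20* UMIs in E16 HS, and in E19 HSTS the cardiac gate takes 42.5% of them.

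In the cardiac gate the counts were small, and the share of each factor's UMIs that lay there depended on the gene. *NKX2-5* had 0 UMIs in E16 HS, 6 in E19 HS and 3 in E19 HSTS, which was 75% and 50% of all its UMIs in the E19 libraries. Its level there was 7.0 CPM (2.57 to 15.2) in E19 HS and 2.85 CPM (0.588 to 8.34) in E19 HSTS. A count of 0 in E16 HS allows up to 21.5 CPM (3 UMIs), which is above both E19 levels, so a difference was not detectable at this depth.

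*TBX20* had 5, 12 and 34 UMIs in the cardiac gate of E16 HS, E19 HS and E19 HSTS (35.9, 14.0 and 32.3 CPM), in 20%, 10.3% and 30% of its cells. The gate held 15.0% of the *TBX20* UMIs of E19 HS and 42.5% of those of E19 HSTS. *TBX5* had 5, 11 and 27 UMIs (35.9, 12.8 and 25.7 CPM), in 15%, 9.35% and 27.5% of the cells, which was 17.7% of its UMIs in E19 HS and 26.2% in E19 HSTS. For both T-box genes E19 HS had the lowest level, and its interval overlapped those of the other libraries.

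*GATA4* had 6, 7 and 14 UMIs (43.1, 8.17 and 13.3 CPM) and *GATA6* 9, 24 and 32 UMIs (64.6, 28.0 and 30.4 CPM). *HAND2* was detected in 45% of the cardiac-gated cells of E16 HS, 29.0% of those of E19 HS and 48.8% of those of E19 HSTS, with 19, 54 and 68 UMIs (136, 63.0 and 64.7 CPM). *HAND1* had 1, 12 and 17 UMIs (7.18, 14.0 and 16.2 CPM). Both *HAND* genes and *GATA6* were at like levels in the E19 libraries, whose intervals overlapped. The number of *HAND1* UMIs for each *HAND2* UMI was 0.0526 (0.00127 to 0.331) in E16 HS, 0.222 (0.108 to 0.421) in E19 HS and 0.250 (0.138 to 0.430) in E19 HSTS, with all 3 intervals overlapping. *ISL1* had 5, 3 and 2 UMIs (35.9, 3.50 and 1.90 CPM), under the minimum for a ratio, and at E19 the gate held only 2.34% and 1.31% of its UMIs.

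Shares of cells with a UMI moved with depth. Cardiac-gated cells of E19 HSTS had a median of 12549.5 UMIs, those of E19 HS 6572 and those of E16 HS 5284.5. Thinned to 3000 UMIs per cell, *HAND2* was detected in 12.5% of 16 cells of E16 HS, 18.7% of 75 of E19 HS and 18.9% of 74 of E19 HSTS, so the higher unthinned share of E19 HSTS was no longer seen. The thinned shares of *GATA6* were 12.5%, 12.0% and 12.2%. *TBX5* kept a higher share in E19 HSTS than in E19 HS after thinning, 10.8% against 1.33%, and *TBX20* 8.11% against 2.67%, but the shares of E19 HS rested on 1 and 2 cells. Erythroid-gated cells had medians of 14196.5, 17723.5 and 17890 UMIs. A *HAND2* UMI was found in 1.98%, 0.793% and 0.324% of them. The shares were 2.09%, 0.288% and 0.162% for *GATA4* and 0.254%, 0.0720% and 0.0810% for *TBX20*. All these shares were lower than those in cardiac-gated cells. The level of free RNA was not estimated, and its part in the shares of either gate was not tested.

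Within the cardiac gate, 5 of the 6 factors with at least 10 UMIs over both libraries were at least 2-fold higher in E16 HS than in E19 HS, where 23.8% of 4802 genes were higher by that much and 30.6% were past 2-fold in either direction. The intervals of *GATA4*, at 5.27 (1.46 to 18.3), and *HAND2*, at 2.16 (1.21 to 3.71), excluded 1. Those of *TBX5*, at 2.79 (0.761 to 8.72), *TBX20*, at 2.56 (0.707 to 7.81), and *GATA6*, at 2.31 (0.943 to 5.14), did not, and *HAND1* was at 0.512 (0.0120 to 3.46). The count of 5 rested on 20 cells of E16 HS and was 1 with TMM scaling, where *HAND1* was past 2-fold lower at 0.335, 1 with a looser gate (at least 1 UMI of both genes) and 2 without the cells that carried *DCN*. *GATA4* was past 2-fold higher in each of these 3 settings, whereas *TBX5* changed direction without the cells that carried *DCN*. The count also fell with a stricter cell filter, over all deposited cells and without cells in 2 or more gates.

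Between the breeds, 1 of 6 factors was past 2-fold in cardiac-gated cells, beside 12.1% of 6102 genes. That gene was *TBX20*, higher in E19 HSTS by a ratio of 2.31 (1.17 to 4.89). *TBX5* lay just under the mark at 2.00 (0.960 to 4.47), *GATA4* was at 1.63, *HAND1* at 1.15, *GATA6* at 1.09 and *HAND2* at 1.03, against a median of 1.06 over all genes. The call of *TBX20* was lost when cells passing a second gate were left out (1.87) and when the 8% of each library scoring highest as doublets were left out (1.78).

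The factors were also counted cell by cell in the cardiac gate. At least 1 of the 8 was detected in 17 of 20 cells of E16 HS, 50 of 107 of E19 HS (46.7%) and 67 of 80 of E19 HSTS (83.8%), and at least 2 in 9, 30 and 40 cells. Among the libraries E19 HS had the lowest share. Median depth in this gate was 5284.5 UMIs in E16 HS, 6572 in E19 HS and 12549.5 in E19 HSTS. These counts of cells were not thinned, and the part of depth in them was not tested. No cell had more than 5 of the 8. A few pairs, picked after their counts had been seen, are given with no reading of whether they meet more often than their own shares would give. *TBX5* and *TBX20* were found together in 4 cells of E19 HS and 11 of E19 HSTS, *HAND1* and *TBX5* in 5 and 4, *HAND2* and *GATA6* in 10 and 8, and *GATA6* and *TBX5* in 3 and 10.

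Cardiac-gated cells with and without a UMI of a given factor were then compared for chamber genes of the E19 libraries. The 4 genes given were picked from the fixed lists after their values had been seen: *MYL2* (ventricular light chain), *MYH7* (beta myosin heavy chain), *MYH6* (alpha myosin heavy chain, which marks atria in most mammals) and *NR2F1* (an atrial nuclear receptor). The 10 *HAND1*-positive cells of E19 HS had *MYL2* at 3914 CPM against 1860 CPM in the 97 others, a ratio of 2.10 (1.91 to 2.31), and *MYH6* at 597 against 1392 CPM, a ratio of 0.428 (0.344 to 0.528). In E19 HSTS the 13 *HAND1*-positive cells had ratios of 1.66 (1.53 to 1.81) for *MYL2* and 0.450 (0.378 to 0.532) for *MYH6*. *MYH7* went with *MYL2*, at 1.91 (1.78 to 2.05) and 1.52 (1.42 to 1.62). *NR2F1* had 0 UMIs in the *HAND1*-positive cells of both libraries, against 36 and 52 UMIs in the others, which allows ratios of up to 0.351 and 0.207 (3 UMIs).

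For *HAND2* the 4 genes lay on the other side of 1. Among E19 HS cells 31 were positive and among E19 HSTS cells 39, and these had *MYH6* at ratios of 1.71 (1.51 to 1.93) and 1.65 (1.47 to 1.85) and *NR2F1* at 4.30 (2.01 to 9.99) and 2.27 (1.20 to 4.54) to the cells without *HAND2*. *MYL2* was at 0.819 and 0.750 and *MYH7* at 0.711 and 0.751. The pattern holds for these 4 genes, chosen for it, and was not tallied over the whole chamber list. The positive cells overlapped, since 3 of the 10 *HAND1*-positive cells of E19 HS and 7 of the 13 of E19 HSTS also had a *HAND2* UMI. Cells with a factor UMI were deeper in both cases, with medians of 16036 against 4929 UMIs for *HAND1* and 9659 against 4261 for *HAND2* in E19 HS, and 17063 against 12209 and 13423 against 11582 in E19 HSTS. The part of depth in these ratios was not tested, and the intervals take UMIs as independent although those of 1 cell are not.

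The same 4 genes, chosen with the *HAND* values in view, were read beside the other factors. *GATA6*-positive cells had *MYH6* at a ratio of 2.99 (2.64 to 3.38) in E19 HS, from 19 cells, and of 1.02 (0.914 to 1.14) in E19 HSTS, from 24 cells. *TBX5*-positive cells had *MYH7* at 1.83 and 1.25 and *MYH6* at 0.942 and 1.04. *TBX20*-positive cells had *MYH7* at 1.60 and 1.08, with *NR2F1* at 0 UMIs in E19 HS and at a ratio of 0.251 (0.0956 to 0.561) in E19 HSTS.

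**Figure D4:**
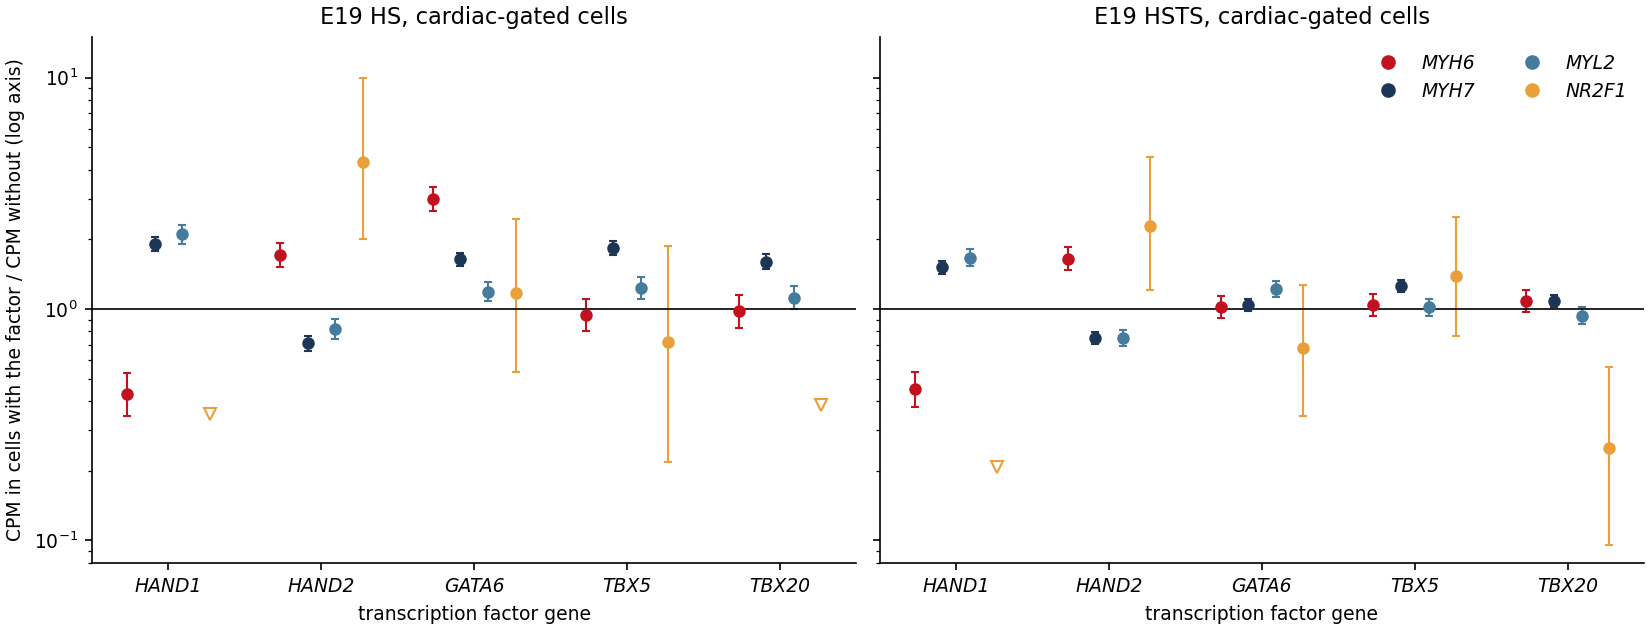
Ratio of CPM of *MYH6*, *MYH7*, *MYL2* and *NR2F1* in cardiac-gated cells with a UMI of a given transcription factor gene to that in cardiac-gated cells without one, in E19 HS and E19 HSTS; the ratio axis is logarithmic, bars are exact 95% intervals for counting error, and triangles are the ratios that 3 UMIs would give where the gene had 0 UMIs in the positive cells. For *HAND1* the ventricular gene *MYL2* lies above 1 (2.10 and 1.66) and *MYH6* under it (0.428 and 0.450), and for *HAND2* the order is the other way round. The genes drawn were chosen after their values had been seen. Cells with a UMI of either *HAND* gene were deeper, and the part of depth was not tested.

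In mesenchymal-gated cells the level of *HAND2* was within counting error between the 3 libraries. *HAND2* had 504, 250 and 264 UMIs there in E16 HS, E19 HS and E19 HSTS, which was 65.1, 65.9 and 63.4 CPM, in 40.6%, 33.4% and 41.4% of cells (16.4%, 18.1% and 17.7% after thinning). *GATA6* was at 21.5, 29.3 and 28.6 CPM and *HAND1* at 16.4, 15.6 and 21.9 CPM. This gate held 52.7% and 62.8% of all *HAND1* UMIs in the E19 libraries, and 37.0% and 36.8% of those of *GATA6*.

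The remaining factors were sparser in mesenchymal-gated cells. *GATA4* had 64, 26 and 21 UMIs (8.27, 6.86 and 5.04 CPM), *TBX20* 47, 29 and 20 (6.07, 7.65 and 4.80 CPM) and *TBX5* 22, 16 and 31 (2.84, 4.22 and 7.45 CPM). The intervals of *TBX5* in E16 HS (1.78 to 4.30) and E19 HSTS (5.06 to 10.6) did not overlap. *ISL1* had 22, 6 and 6 UMIs. *NKX2-5* had 0 UMIs in this gate in every library, which allows up to 0.388, 0.791 and 0.721 CPM (3 UMIs), against 7.0 CPM in the cardiac gate of E19 HS.

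No factor was past 2-fold in mesenchymal-gated cells in either comparison, 0 of 7 between stages, where 15.7% of 10486 genes were, and 0 of 7 between breeds, where 9.83% of 9888 genes were. Between stages *HAND2* was at 0.988 (0.847 to 1.15) and *HAND1* at 1.05. *GATA6* was lower in E16 HS at 0.733 (0.573 to 0.940). *ISL1* had the ratio farthest from 1, at 1.80 (0.706 to 5.42), within its counting error. Between breeds *TBX5* was at 1.76 (0.936 to 3.45), *HAND1* at 1.40 (1.00 to 1.98), *HAND2* at 0.962, *GATA6* at 0.976 and *TBX20* at 0.628 (0.337 to 1.15).

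In ungated cells the stages stood apart as they did over all cells. *TBX20* had 292, 35 and 23 UMIs there (4.87, 0.849 and 0.695 CPM), *HAND1* 243, 34 and 34, *GATA4* 318, 45 and 37, *GATA6* 567, 125 and 114 and *HAND2* 2442, 479 and 516. Of the 7 factors with at least 50 UMIs, 5 were at least 2-fold higher in E16 HS than in E19 HS, beside 6.18% of 11538 genes (12.5% in either direction). *GATA4* was detected in 3.72% of ungated cells of E16 HS, not far above its 2.09% in the deeper erythroid-gated cells. The ratio was 5.73 (4.03 to 8.39) for *TBX20*, 4.91 (3.42 to 7.25) for *HAND1*, 4.85 (3.54 to 6.79) for *GATA4*, 3.50 (3.17 to 3.87) for *HAND2* and 3.12 (2.56 to 3.81) for *GATA6*. Between breeds 0 of 7 were past 2-fold, beside 3.47% of 11107 genes, with *ISL1* at 1.80 (1.31 to 2.47) and *HAND2* at 1.34 (1.18 to 1.52) against a median of 1.15 over all genes.

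Endodermal-gated cells had few UMIs of any factor but *GATA6*, which in mammals is needed for primitive endoderm. *GATA6* had 2, 8 and 20 UMIs in this gate of E16 HS, E19 HS and E19 HSTS (4.08, 6.33 and 15.4 CPM), in 4.17%, 8.16% and 18.6% of cells. E19 HSTS was the high library, with a ratio of 2.43 (1.03 to 6.38) to E19 HS, and 7.95% against 3.45% of cells after thinning. The other 7 factors had at most 2 UMIs in this gate in any library. The share of all genes past 2-fold among endodermal-gated cells was not counted.

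*HAND2* and the GATA genes were also present in endothelial-gated cells, a gate that can hold endocardium. *HAND2* had 29, 41 and 12 UMIs (37.1, 24.7 and 8.30 CPM), which put E19 HSTS under E19 HS at a ratio of 0.336 (0.161 to 0.652). *GATA4* had 6, 6 and 17 UMIs (7.68, 3.61 and 11.8 CPM), with a ratio of E19 HSTS to E19 HS of 3.26 (1.22 to 10.1). *GATA6* was at 10.2, 10.2 and 7.61 CPM. The share of all genes past 2-fold in the endothelial gate was not counted. In E16 HS the 13 *HAND2*-positive cells of this gate held 186 of its 205 *DCN* UMIs; the part of mesenchymal RNA in the E16 HS value was not tested.

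*ISL1* had its highest level of all gates in neuronal-gated cells of the E19 libraries. It had 33 UMIs in 103 cells of E19 HS (52.6 CPM, 36.2 to 73.9) and 28 UMIs in 91 cells of E19 HSTS (38.6 CPM, 25.6 to 55.7), in 27.2% and 17.6% of the cells and in 16.8% and 11.2% after thinning. The breeds did not differ beyond counting error, at a ratio of 0.733 (0.427 to 1.25). These cells held 25.8% and 18.3% of all *ISL1* UMIs of their libraries. E16 HS had 14 neuronal-gated cells with 3 *ISL1* UMIs. In epithelial-gated cells *ISL1* was at 4.35, 3.49 and 2.56 CPM.

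Genes found beside the factors in ungated cells were compared between cells with and without a UMI of the factor. They came from the fixed lists and from a few genes added after the data had been seen, and those given were chosen for their ratios. The part of depth in the ratios for ungated cells was not tested. Their intervals take UMIs as independent, although UMIs of the same cell are not. *HAND2*-positive ungated cells of E16 HS (1240 cells) had *ANXA1* at a ratio of 6.25 (5.85 to 6.69), *DCN* at 5.63, *COL1A1* at 5.47 and *TBX4* at 5.25. In E19 HS (329 cells) *PITX1*, the hindlimb and hindgut homeobox gene, was at 9.85, *DCN* at 9.75, *WNT2* at 6.26, *TBX4* at 5.96 and *FOXF1*, a gene of splanchnic mesoderm, at 5.20. In E19 HSTS (343 cells) *TBX4* was at 12.4, *PITX1* at 10.8 and *WNT2* at 6.99.

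*GATA4*-positive ungated cells of E19 HS (38 cells) had *ZFPM2*, the FOG2 cofactor that binds GATA4, at a ratio of 19.9 (12.0 to 31.4). In E19 HSTS (30 cells) *TCF21*, a gene of epicardium and visceral mesoderm, was at 16.0 (11.9 to 21.2). *TBX20*-positive ungated cells of E16 HS (250 cells) had *GATA5* at 8.18 and *WNT2B* at 5.01. *ISL1*-positive ungated cells had the somatostatin gene *SST* at 36.9 (29.6 to 45.7) in E19 HS and at 56.3 in E19 HSTS, from only 4 and 6 cells with both genes, and *NEFM* at 8.32 and 6.60, whereas in E16 HS they had *TTR* at 5.01, *TBX3* at 3.11 and *BMP4* at 2.71. In neuronal-gated cells the *SST* ratio beside *ISL1* went opposite ways, 0.578 (0.487 to 0.682) in E19 HS and 11.2 (9.06 to 13.8) in E19 HSTS, from 5 and 3 cells with both genes.

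Other genes of the cardiac network were read from lists that hold no member. Over all kept cells, E16 HS was at least 2-fold higher than E19 HS for 3 of 10 tested upstream and early mesoderm genes (*BMP5* 2.26, *BMP7* 2.28 and *SALL4* 2.11), 1 of 16 cofactors (*ZFPM2* 2.09), *HCN4* (3.09), *FGF8* (3.01) and *OSR1* (2.94) among genes of the second heart field and venous pole, and 4 of 11 of epicardium and lateral plate (*PITX1* 4.43, *FOXF1* 3.78, *TBX4* 3.68 and *TCF21* 2.49). Another 3 of those 11 were lower (*ALDH1A1* 0.0556, *BARX1* 0.424 and *PRRX1* 0.426). Of 18 tested chamber and contractile genes, 9 were at least 2-fold lower in E16 HS, among them *MYH7*, *MYL2* and *ACTC1*, and 2 were higher (*CITED1* and *NEBL*), with a median of 0.459. Among other GATA and T-box family genes 1 of 7 was higher, *GATA3* at 2.27. Over all 12580 genes tested, 6.96% were at least 2-fold higher in E16 HS and 6.38% at least 2-fold lower. A count of 1 gene is not read as a result about its list. Between the breeds no tested gene of these lists was past 2-fold over all kept cells, beside 3.81% of 12439 genes.

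In the cardiac gate, the highest genes of these lists in E16 HS, E19 HS and E19 HSTS were *ACTC1* at 6359, 10939 and 9608 CPM among contractile genes, *MEIS2* at 100.5, 59.5 and 47.5 CPM among cofactors, *NR2F2* at 294, 28.0 and 53.2 CPM among venous pole genes, and *BMP7* at 100.5, 106 and 142 CPM among upstream genes. The ventricular genes *MYL2* and *MYH7* were lower in E16 HS than in E19 HS, at ratios of 0.137 and 0.164, and *MYH6* was higher at 3.99. *NR2F1* and *NR2F2* were higher at 4.95 and 10.5, *WNT2* at 11.5, *MYOCD*, the cofactor of serum response factor, at 10.8 and *ZFPM2* at 2.25. These stage ratios rest on 20 cells of E16 HS, and 30.6% of 4802 genes were past 2-fold in either direction. Between breeds, E19 HSTS to E19 HS, *WNT2* was at 3.77, *BMP2* at 2.31 and *BMP4* at 0.255 among 8 tested upstream genes. *HCN4* was at 2.44 among 4 venous pole genes. Of 18 contractile genes *CASQ2*, at 2.44, and *CITED1* were past 2-fold higher. *TCF21* was at 4.89 among 2 epicardium and lateral plate genes, and *TBX3* at 3.80 among 2 other GATA and T-box family genes. Past 2-fold were 0 of 12 cofactors, and 12.1% of all 6102 genes tested. These ratios of listed genes were not taken under other settings.

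Across the 27 groups of at least 50 cells formed by gate and library, the genes whose log2(CPM + 10) followed each factor most closely were named by Pearson's r among genes with at least 100 UMIs, as a description over groups that share libraries and depth. *TBX20* had the highest r to *TBX5* and *TBX5* to *TBX20* (r = 0.954), whereas with a pseudocount of 1 CPM *VWC2* came first for *TBX5* (0.922) and *CNN1* for *TBX20* (0.928), and with a minimum of 30 UMIs *BMP10* came first for *TBX5* (0.959). *ISL1* was followed most closely by *CHRNA3* (0.966), *PPP1R17* (0.959) and *SST* (0.959), of which *CHRNA3* alone was kept under either of these settings. *NKX2-5* had *MAP3K5* (0.949), *ADPRHL1* (0.949) and *APOBEC2* (0.937) nearest, with its own level resting on a few UMIs. With a minimum of 30 UMIs none of these 3 was kept, and *MYOZ2* (0.996), *NRAP* (0.990) and *HSPB3* (0.960) came first. *HAND1* had *MMP23B* (0.943), *HEBP2* (0.928) and *WNT2* (0.927), and *HAND2* had *ZFPM2* (0.906), *COL4A6* (0.906) and *BMP5* (0.892). *GATA4* had *CAVIN3* (0.947), *ZFPM2* (0.921) and *MSRB3* (0.875), and *GATA6* had *CAVIN3* (0.868), *HAND1* (0.867) and *HEBP2* (0.865). *TBX5* was next followed by *VWC2* (0.947) and *SSPN* (0.946), and *TBX20* by *CNN1* (0.939) and *PKIG* (0.933).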

How the data were processed

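The values are raw UMI counts per gene and cell barcode, deposited by the authors as 3 matrices made with Cell Ranger 6.1.2 on the Ovis_aries_genome_v1.0 reference; per the submitters' processing notes, Seurat 4.1.1 in R 4.1.2 followed. The members and lists were chosen with earlier results of these data known. Of 26478 genes, 16670 had a symbol.

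Cells were filtered and placed in the first gate they passed (cardiac, endodermal, mesenchymal, erythroid, endothelial, then the others), so no clustering was used. Between 137 and 175 cells per library passed 2 or more gates. Doublets were kept: Scrublet (scanpy 1.11.5) called 198 cells of E16 HS (1.75%), 193 of E19 HSTS (2.01%) and none of E19 HS, where it did not work, so an alternative left out the 8% of cells with the highest scores in each library. UMIs were summed per library and gate, ratios were taken of CPM without a pseudocount, and a factor was called past 2-fold at a ratio of at least 2 or at most 0.5 where both libraries together had 50 UMIs (all or ungated cells) or 10 UMIs (other gates). A gene with 0 UMIs was given a floor of 3 counts. Ratio intervals are exact conditional binomial intervals. Scripts ran in Python 3.11.15 with scipy 1.17.1 and were tested on simulated data; TMM factors came from edgeR 4.0.16 in R 4.3.3. The genes named are the members, listed genes past 2-fold or with the highest CPM of their list in the cardiac gate, and the 3 genes with the highest r to each member, apart from those said to be chosen after their values were seen. Alternatives were other cell filters, TMM scaling, equal weight per cell, gates and minimums. No genome of the files' build was used, so no coordinates or sequences are given. A listed gene is not reported here.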

Additional observations from a re-analysis of the deposited data

How the results depend on the processing

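No paired analysis was possible because each group had 1 library. Over all kept cells, the 5 factors past 2-fold in E16 HS to E19 HS became 3 with equal weight per cell, 4 (without *GATA6*) with TMM scaling, with all deposited cells and without erythroid-gated cells, and 1 (*TBX20*, lower, at 0.312) without erythroid-gated cells and cells with *DCN*, an alternative chosen after seeing the data. In the cardiac gate the count of 5 became 0 with a stricter cell filter (2 factors had enough UMIs), 2 with all deposited cells, 2 with TMM scaling (*GATA4* higher and *HAND1* lower, at 0.335), 3 without cells in 2 or more gates, 1 with the looser gate and 2 without *DCN*-bearing cells, where *TBX5* reversed to 0.940; 20 cells limit this comparison. For the breeds the count over all kept cells was 0 under every alternative run, and the cardiac count of 1 became 2 with the stricter filter, with the looser gate and with a minimum of 1 UMI, 2 other genes (*GATA4* and *TBX5*, with *TBX20* lost) without cells in 2 or more gates, and 0 without the highest doublet scores. Of the single-factor ratios, 51 of 64 and 57 of 64 (all kept cells, stages and breeds) and 55 of 59 and 68 of 70 (cardiac gate) stayed within their main interval. Intervals in the cardiac gate were wide, such as 0.0120 to 3.46 for *HAND1* between stages. Staying within them therefore says little about how stable those ratios are. Of the shares of cardiac-gated cells with a factor UMI, 16 of 24 moved on thinning and 21 of 24 with a minimum of 2 UMIs per cell. Of the 24 genes named for likeness, 14 were kept with a pseudocount of 1 CPM and 17 with a minimum of 30 UMIs. The causes were not tested.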
